A study of Homo sapiens with 12 samples.

Results

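The genes described here are 10 known targets of the transcription factor NRF2: GCLM, GCLC, SLC7A11, GSR, TXNRD1, TXN, SRXN1, PRDX1, NQO1 and OSGIN1. All except NQO1 and OSGIN1 are genes of the glutathione and thioredoxin systems. The 10 genes were taken by name from the count data, which list 57736 genes, of which 27326 had at least 1 count in a library. Each name belonged to 1 gene, and all 10 genes passed the filter on low counts in every comparison. OSGIN1 passed it in Ls174 through the treated libraries, and between the lines through HepG2, the groups in which it was higher.

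Cells were cultures of HepG2, a human liver cancer cell line, and Ls174, a human colon cancer cell line, both labelled wild type and each a single line. Treated cells received an extract of the red seaweed Hypnea musciformis (HME) for 24 h, at 0.7 mg/ml according to the labels, which describe this as the concentration inhibiting growth by 50%. The methods of the study give a slightly higher concentration, so the exact dose is uncertain. Control cells of the same line did not receive the extract. Each of the 4 groups held 3 biological replicates, giving 12 libraries, and RNA was read from the 3′ end of the transcripts.

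NRF2 (gene NFE2L2) is a transcription factor that the adaptor KEAP1 marks for destruction in unstressed cells. When oxidants or reactive chemicals modify KEAP1, NRF2 accumulates, pairs with small MAF proteins and binds antioxidant response elements near its target genes. Those targets rebuild glutathione and thioredoxin, the main thiol reductants of the cell, and are well known in liver, where reactive compounds are detoxified.

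Library totals ran from 1790841 to 3656662 counts. All 10 of 10 hepatocyte markers had counts in the control cells of both lines. Their summed level was 18601 to 22544 CPM (counts scaled to a fixed library total) in HepG2 control cells, against 23.1 to 186 CPM in Ls174 control cells. The summed colon epithelium markers reached 411 to 494 CPM in Ls174 control cells and 69.8 to 209 CPM in HepG2 control cells, although KRT20 was at 0 in the former. Of 7 colon markers tested between control cells, 6 were called higher in Ls174 (9.33% of all genes). VIL1 was fitted lower there, at -1.14 on the log2 scale, and was not called. CDX1, CDX2, CDH17 and GPA33 did not pass the filter within HepG2 and entered this test through Ls174, where they were higher. The count of markers called is therefore given as a description. The summed blood markers were 118 to 565 CPM in HepG2 control cells and 1.55 to 4.86 CPM in Ls174 control cells. Of these markers, 5 had a count in HepG2 control cells and 3 in Ls174 control cells. CD3E, HBA2, HBB, PTPRC and SPI1 were at 0 in the HepG2 controls. Control replicate 2 of HepG2 and control replicate 1 of Ls174 stood apart from the other controls of their line: chi-square per degree of freedom over all genes was 54.1 and 49.1 against the other HepG2 controls, which differed from each other by 13.6, and 34.5 and 37.0 in Ls174, where the other controls differed by 5.68. The summed mesenchymal markers were 1141 CPM in HME replicate 2 of HepG2 and 29.9 to 87.7 CPM in the other HepG2 libraries. In bulk RNA, a change in the number of cells of a type and a change in RNA per cell cannot be told apart.

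The antioxidant response element was searched for in the promoters of the genes, because it is the sequence to which NRF2 is known to bind. RefSeq promoters (GRCh38.p14, from 250 bases before to 50 bases after the annotated start) were used for 7 genes, and none for SLC7A11, GSR and PRDX1. For TXNRD1, the first of the listed starts was used. The motifs TGACNNNGC and TGAGNNNGC, in which N is any base, were searched on both strands. At least 1 of the motifs was found in 4 of the 7 promoters and in 29.4% of all 27305 promoters. TGACNNNGC occurred in GCLM and TXNRD1 (13.6% of all promoters), and TGAGNNNGC in GCLM, NQO1 and OSGIN1 (18.4%). Every match is shown with 10 bases on each side, 5′ to 3′ on the strand that carries it, with the motif in capitals:
GCLM, chr1:93909446-93909474, plus strand: tggaagacaaTGACTAAGCagaaatcgta
GCLM, chr1:93909420-93909448, plus strand: gattccaaacTGAGGGAGCtgtttcctgg
TXNRD1, chr12:104215670-104215698, plus strand: acacgggctaTGACTTCGCtgttgtcacc
TXNRD1, chr12:104215761-104215789, minus strand: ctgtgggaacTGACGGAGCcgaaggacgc
NQO1, chr16:69726661-69726689, plus strand: cggaggatgcTGAGGCTGCagctccagga
OSGIN1, chr16:83953131-83953159, minus strand: ttcataagcgTGAGTCAGCaggggcccgt
These are matches of letters and not shown to be bound sites, and a promoter without a match says nothing about NRF2.

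The first question was whether HME changed these genes in HepG2 cells. Of the 10 genes, 6 rose (GCLM, GCLC, SLC7A11, TXNRD1, SRXN1 and OSGIN1) and none fell, at an adjusted p under 0.05 by edgeR's quasi-likelihood test over 11343 genes. Across all genes tested, 2.77% rose and 0.538% fell. The thresholds of the study were looser, requiring a log2 fold change past 0.58 with p below 0.05 before adjustment. By these, 9 of the 10 genes were higher, PRDX1 being the exception, against 11.3% of all genes. The median log2 fold change was 2.07 over the 10 genes and -0.042 over all genes. The 10 genes were chosen with earlier results of these data known, so their contrast with all genes is a description. In all 10 genes every treated library lay above every control library, which held for 16.6% of all genes. The summed hepatocyte markers were 13458 to 14827 CPM after HME, below every HepG2 control. Of these 10 markers, 9 had a fitted value below 0 and none was called, and their part in the results was not tested.

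GCLC and GCLM encode the catalytic and modifier subunits of glutamate-cysteine ligase, the rate-limiting enzyme of glutathione synthesis. GCLC was 42.9, 35.5 and 41.7 CPM in the HepG2 controls and 256, 178 and 237 CPM after HME. The controls lay close together and the lowest treated library was well above them. GCLC rose 5.59-fold in mean level, with a log2 fold change of 2.48 ± 0.32 (SE, n = 3 per group; edgeR adjusted p = 0.00332). GCLM was 72.5, 160 and 45.7 CPM in the controls and 280, 390 and 548 CPM after HME. Control 2 was the highest of the controls. The log2 fold change was 2.13 ± 0.49 (edgeR adjusted p = 0.0498), and without control 2 it was 2.79. The call was lost on leaving out any other HepG2 library, with adjusted p up to 0.184. It was also lost when the leading region of each gene was counted alone.

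SLC7A11 is the cystine-importing subunit of system xc-, which supplies cysteine for glutathione. It was 42.9, 38.5 and 31.5 CPM in the controls and 120, 147 and 190 CPM after HME. The groups were well separated, with a log2 fold change of 2.01 ± 0.32 (edgeR adjusted p = 0.0113). GSR, glutathione reductase, returns oxidised glutathione to its reduced form. It was 119, 129 and 108 CPM in the controls and 221, 230 and 238 CPM after HME. Its log2 fold change of 0.96 ± 0.28 did not pass (edgeR adjusted p = 0.0955), although the groups did not overlap.

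TXNRD1, thioredoxin reductase, feeds electrons to thioredoxin. It was 59.5, 7.95 and 41.7 CPM in the controls and 356, 351 and 337 CPM after HME. The treated libraries lay within a narrow range, and control 2, with 13 counts, was far below the other controls. TXNRD1 had the largest log2 fold change of the 10 genes with all libraries, 3.24 ± 0.60 (edgeR adjusted p = 0.0196). Without control 2 it was 2.79 and that of OSGIN1, at 3.14, was larger. TXN, thioredoxin itself, was 277, 149 and 244 CPM in the controls and 351, 387 and 471 CPM after HME. Its log2 fold change was 0.85 ± 0.34 (edgeR adjusted p = 0.184).

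SRXN1, sulfiredoxin, restores over-oxidised peroxiredoxins. It was 164, 62.4 and 120 CPM in the controls and 615, 978 and 990 CPM after HME. It rose 7.47-fold in mean level, with a log2 fold change of 2.90 ± 0.43 (edgeR adjusted p = 0.00798). Its counts were identical to those of a second, overlapping gene, so the reads cannot be assigned to SRXN1 alone. PRDX1, a peroxiredoxin that reduces hydrogen peroxide, was 2101, 2348 and 2377 CPM in the controls and 3222, 3811 and 3064 CPM after HME. It was the most abundant of the genes and had the smallest log2 fold change, 0.56 ± 0.31 (edgeR adjusted p = 0.310).

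NQO1, a quinone reductase, was 590, 579 and 864 CPM in the HepG2 controls and 1538, 1126 and 1219 CPM after HME. The groups did not overlap, but the log2 fold change of 0.93 ± 0.33 did not pass (edgeR adjusted p = 0.141). OSGIN1, an oxidative stress-induced growth inhibitor, was 30.8, 81.4 and 40.9 CPM in the controls and 325, 284 and 326 CPM after HME. It rose 6.11-fold in mean level, with a log2 fold change of 2.62 ± 0.41 (edgeR adjusted p = 0.0104).

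Leaving out 1 HepG2 library at a time, GCLC and SRXN1 kept their calls in 6 of 6 fits, SLC7A11 and OSGIN1 in 4, and TXNRD1 in 2. Without control 2, which stood apart, 7 genes were called, and without HME replicate 2, which carried the mesenchymal markers, 4 were. Without control 3 or without HME replicate 3, 2 were called. The shares of all genes called in these fits are not given here, so these counts show only how the calls move.

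**Figure D1:**
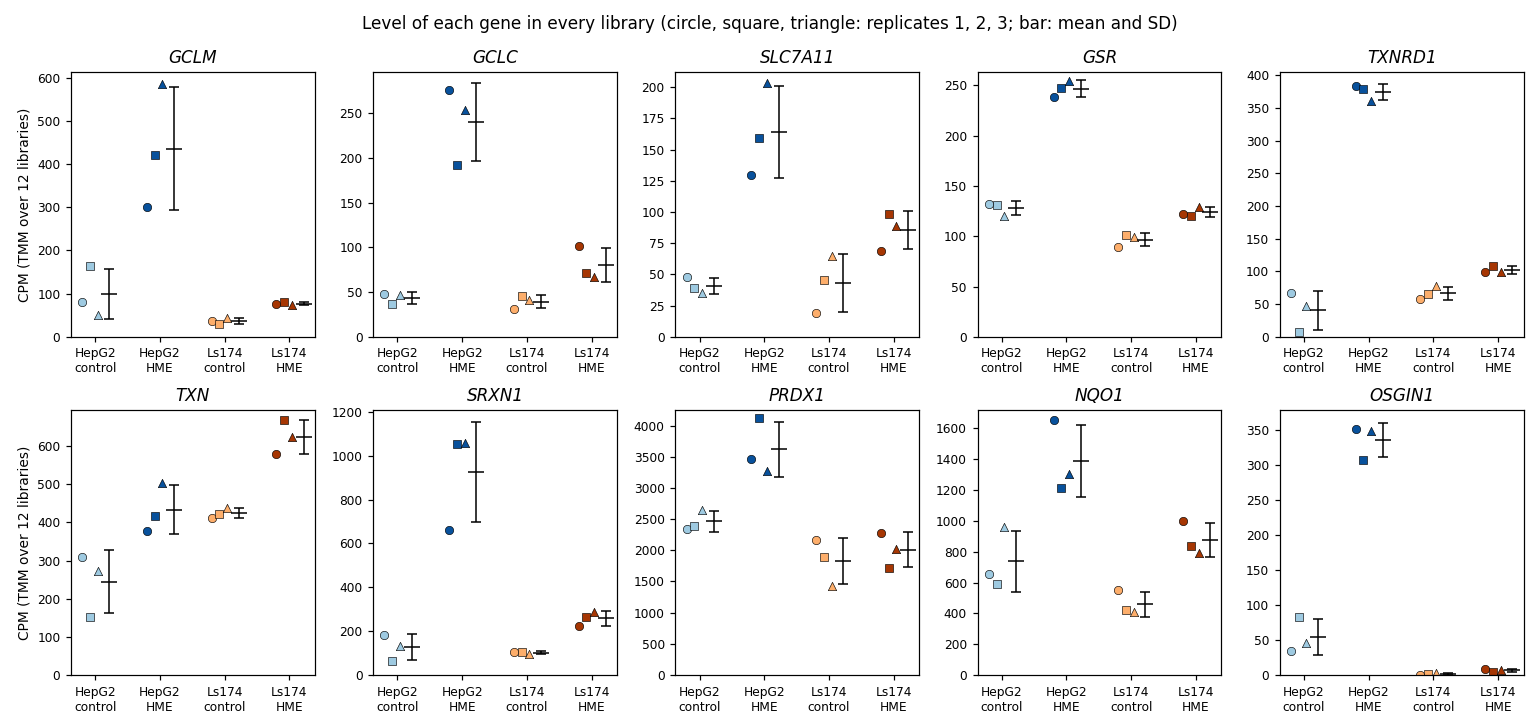
Level of each of the 10 genes in CPM, normalised over all 12 libraries, in the 4 groups of 3 libraries; symbols mark replicates 1 to 3, bars the mean and SD, and each panel has its own axis from 0. In HepG2, the treated libraries of every gene lie above the controls, whereas OSGIN1 in Ls174 stays near 0 on the scale of HepG2.

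The same question was asked in Ls174 cells. Of the 10 genes, 1 rose (SRXN1) and none fell at an adjusted p under 0.05 over 11319 genes, of which 0.318% rose and 0.866% fell. With the thresholds of the study, 7 genes were higher (GSR, TXN and PRDX1 were not), against 4.11% of all genes. TXN, with a log2 fold change of 0.55, lay just under this limit. A slightly lower limit on fold is also given in the study's text, and TXN would be counted by it. The median log2 fold change was 0.95 over the 10 genes and -0.0029 over all genes. Here too the contrast with all genes is a description, given how the 10 genes were chosen. In 9 genes, all except PRDX1, the treated libraries lay above the controls, against 11.5% of all genes. Both counts include OSGIN1, which was filtered in through the group where it was higher.

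SRXN1 was 116, 115 and 104 CPM in the Ls174 controls and 240, 286 and 313 CPM after HME. The controls agreed closely, and the mean rose 2.51-fold, with a log2 fold change of 1.33 ± 0.19 (edgeR adjusted p = 0.0302). The same counts were given to a second, overlapping gene, so the reads cannot be assigned to SRXN1 alone. The call held without control 1, which stood apart. In that fit 4 of the 10 genes were called, and the share of all genes is not given here. The SRXN1 call was lost on leaving out any other Ls174 library, with adjusted p up to 0.269, and in a single fit of all 12 libraries.

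For glutathione synthesis, GCLM was 40.8, 33.1 and 47.5 CPM in the Ls174 controls and 81.5, 87.3 and 79.3 CPM after HME. The separation was clean, but the log2 fold change of 1.03 ± 0.21 did not pass (edgeR adjusted p = 0.0634). GCLC was 34.8, 48.8 and 44.4 CPM in the controls and 110, 77.7 and 72.6 CPM after HME, a log2 fold change of 1.02 ± 0.24 (edgeR adjusted p = 0.104). SLC7A11 was 20.7, 48.8 and 70.1 CPM in the controls and 74.1, 107 and 96.1 CPM after HME. Its controls spread widely, with control 1 the lowest, and the log2 fold change was 0.97 ± 0.38 (edgeR adjusted p = 0.331). GSR was 98.5, 109 and 107 CPM in the controls and 132, 130 and 140 CPM after HME, a log2 fold change of 0.35 ± 0.17 (edgeR adjusted p = 0.415).

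In the thioredoxin system, TXNRD1 was 63.6, 70.2 and 83.4 CPM in the Ls174 controls and 107, 118 and 107 CPM after HME, a log2 fold change of 0.61 ± 0.19 (edgeR adjusted p = 0.217). TXN was 456, 453 and 472 CPM in the controls and 625, 722 and 676 CPM after HME, a log2 fold change of 0.55 ± 0.18 (edgeR adjusted p = 0.236). For both genes the treated libraries lay above all controls. PRDX1 was 2392, 2032 and 1539 CPM in the controls and 2470, 1858 and 2189 CPM after HME. Its groups overlapped, with a log2 fold change of 0.13 ± 0.24 (edgeR adjusted p = 0.840).

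NQO1 was 607, 451 and 438 CPM in the Ls174 controls and 1082, 903 and 858 CPM after HME. Its log2 fold change, 0.93 ± 0.22 (edgeR adjusted p = 0.103), had a value close to that in HepG2. OSGIN1 had 0, 3 and 11 counts in the controls and 23, 12 and 23 counts after HME. All treated libraries were above the controls, but at this depth the log2 fold change was uncertain, 2.22 ± 0.78 (edgeR adjusted p = 0.271), and it ranged from 1.78 without control 1 to 3.52 without control 3.

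**Figure D2:**
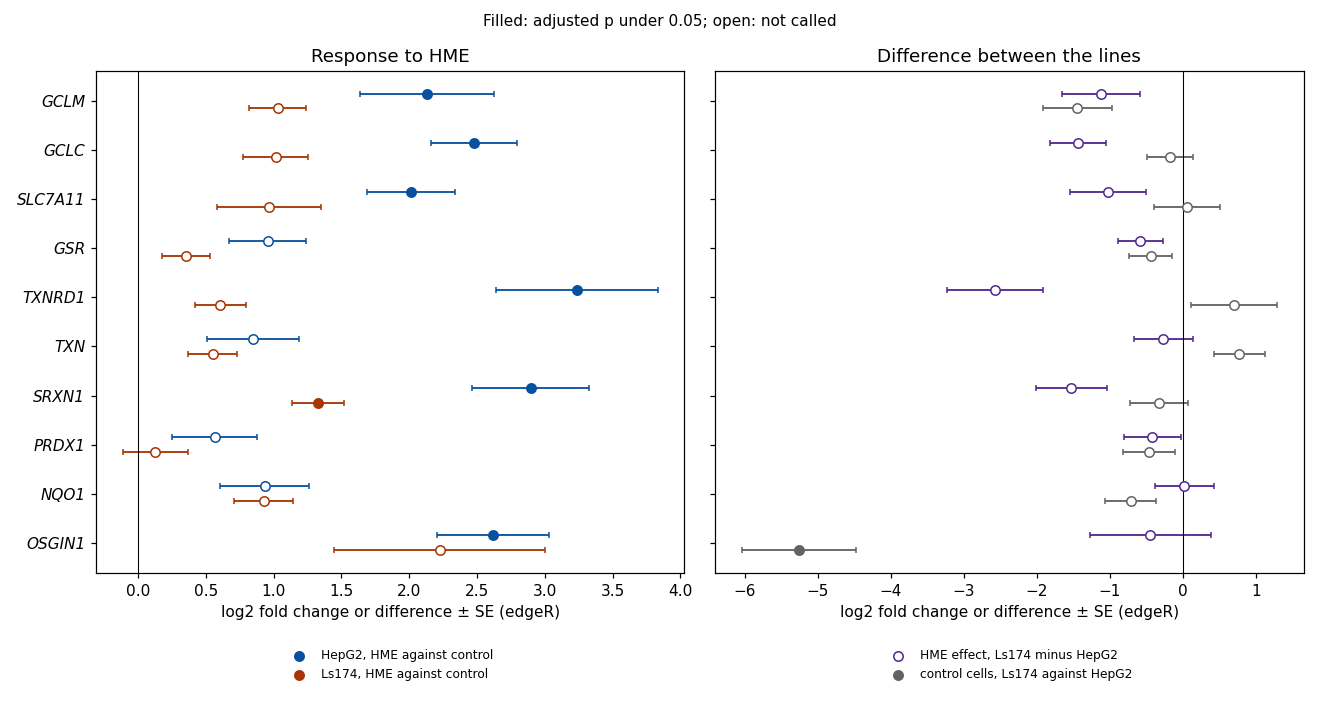
Fitted log2 values with their SE for the 10 genes: on the left, HME against control in HepG2 (blue) and Ls174 (brown); on the right, the HME effect in Ls174 minus that in HepG2 (purple) and control Ls174 against control HepG2 cells (grey). Filled points passed an adjusted p of 0.05: 6 genes in HepG2, 1 in Ls174, none for the difference in response and OSGIN1 between control cells. OSGIN1 had 0, 3 and 11 counts in the Ls174 controls.

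Whether the lines differed in their response was tested as an interaction, which uses the same libraries as the fits within each line. None of the 10 genes passed at an adjusted p under 0.05 (edgeR, 13040 genes tested, of which 0.613% were lower and 0.0307% higher in Ls174). At the thresholds of the study, which 7.42% of all genes met in this direction, 3 genes had a smaller response in Ls174. The largest difference was that of TXNRD1, -2.57 ± 0.65 on the log2 scale (edgeR adjusted p = 0.0973), followed by SRXN1, -1.53 ± 0.48 (edgeR adjusted p = 0.183), and GCLC, -1.44 ± 0.38 (edgeR adjusted p = 0.120). For NQO1 the difference was 0.019 ± 0.40, with an interval of 2 SE from -0.78 to 0.82. For OSGIN1 it was -0.45 ± 0.83, an interval from -2.11 to 1.21, which leaves a difference in either direction possible. DESeq2 called 3 genes lower. An alternative chosen after seeing the data, without both controls that stood apart, also called 3 (GCLM, GCLC and TXNRD1). The shares of all genes called by these alternatives are not given here.

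In control cells, the lines were compared on 1 scale for all 12 libraries. OSGIN1 averaged 54.3 ± 25.3 CPM (SD, n = 3) in HepG2 and 1.25 ± 1.43 CPM in Ls174. It was the only gene of the 10 called, a log2 difference of -5.26 ± 0.78 (edgeR adjusted p = 0.00124, Ls174 relative to HepG2), against 14.2% of 11907 genes called lower and 9.33% called higher in Ls174. OSGIN1 entered this test through HepG2, the group in which it was higher, so the call is given as a description. When every library had to hold at least 10 counts it was filtered out, and none of the 10 genes was called. The size of this difference rests on 0, 3 and 11 counts in Ls174 and is imprecise: it was -6.57 without Ls174 control 3 and -4.79 without HepG2 control 2, and the call held in 6 of 6 fits that left out 1 library. GCLM averaged 98.4 ± 58.1 CPM in HepG2 and 37.2 ± 6.66 CPM in Ls174, a log2 difference of -1.45 ± 0.47 (edgeR adjusted p = 0.0550). At the thresholds of the study these 2 genes were lower in Ls174, against 19.5% of all genes. The control libraries of the lines did not overlap in 5 genes that were lower in Ls174 (22.3% of all genes) and in 1 that was higher (20.3%). The other 8 genes had log2 differences from -0.72 for NQO1 to 0.77 for TXN and did not pass. Without both controls that stood apart, 4 genes were called lower in Ls174 (GCLM, SRXN1, NQO1 and OSGIN1). The share of all genes called in that fit is not given here. PRDX1 had the highest level in each line (2462 CPM in HepG2 and 1825 CPM in Ls174), followed by NQO1 (737 and 458 CPM) and TXN (244 and 424 CPM). In Ls174 control cells the last pair did not differ beyond their spread, with SDs of 78.9 and 13.1 CPM. Because 3′ reads do not grow in number with transcript length, these levels can be set side by side without a length correction.

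The 10 genes together took 0.313% to 0.442% of all counts in HepG2 controls and 0.683% to 0.757% after HME. In Ls174 they took 0.304% to 0.356% in controls and 0.419% to 0.475% after HME, so that in neither line did the groups overlap. PRDX1, which was not called in either line, was the largest part of the sum in every library. It held 8718 of 14519 counts in HepG2 control 1 and 8761 of 19811 in HepG2 HME replicate 1.

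The regulators of NRF2 were described next. In HepG2, 4 of 13 rose and none fell at an adjusted p under 0.05, against 2.77% and 0.538% of all genes. MAFF and MAFK, small MAF partners of NRF2, rose by 3.27 ± 0.37 (edgeR adjusted p = 0.00220) and 2.16 ± 0.34 (edgeR adjusted p = 0.0102) on the log2 scale. SQSTM1, an autophagy receptor that binds KEAP1, rose by 2.11 ± 0.37, and BACH1, a repressor of NRF2 targets, by 1.81 ± 0.38. The log2 fold changes of NFE2L2, 1.63 ± 0.47, and KEAP1, 1.24 ± 0.30, did not pass (edgeR adjusted p = 0.0908 and 0.0549). In Ls174, 1 of 13 rose, against 0.318% of all genes. This was SQSTM1, from 141, 207 and 206 CPM to 605, 613 and 570 CPM, a log2 fold change of 1.69 ± 0.22 (edgeR adjusted p = 0.0249). NFE2L2 was 0.33 ± 0.46 and KEAP1 0.33 ± 0.18 on the log2 scale, neither of which passed.

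Of other NRF2 targets, 4 of 31 tested rose in HepG2 (2.77% of all genes) and 8 of 29 in Ls174 (0.318%). None was called lower. Treated libraries lay above all controls in 15 of these genes in HepG2 (16.6% of all genes) and 17 in Ls174 (11.5%). They lay below all controls in 2 in HepG2 and 1 in Ls174, for which the share of all genes is not given here. HMOX1, the heme-degrading oxygenase, was 90.4, 57.5 and 77.9 CPM in the HepG2 controls and 425, 770 and 803 CPM after HME. It rose by 3.14 ± 0.39 on the log2 scale (edgeR adjusted p = 0.00288), whereas in Ls174 it reached at most 12.1 CPM and its log2 fold change of 1.60 ± 0.61 did not pass (edgeR adjusted p = 0.308). AKR1B10 and AKR1C2, aldo-keto reductases, rose in HepG2 by 2.96 and 1.66, and in Ls174 by 2.58 and 3.12. PTGR1, a prostaglandin reductase, rose in HepG2 by 2.06, and its value of 1.12 in Ls174 did not pass (edgeR adjusted p = 0.0895). In Ls174, AKR1C1 and AKR1C3 rose by 2.39 and 2.30. Their values of 1.14 and 1.34 in HepG2 did not pass (edgeR adjusted p = 0.0908 and 0.121). The difference in response between the lines did not pass for PTGR1, AKR1C1 or AKR1C3 (edgeR adjusted p = 0.391, 0.301 and 0.515). The AKR1C genes are near-identical copies, so how reads were divided among them is uncertain.

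Of the other glutathione genes, 3 of 16 tested rose in HepG2, against 2.77% of all genes. They were CTH, which makes cysteine from cystathionine (log2 fold change 2.75), GLRX, glutaredoxin (1.49), and SLC3A2, the partner of SLC7A11 in system xc- (1.44). None of 17 passed in Ls174, where the smallest p belonged to CBS (1.14, edgeR adjusted p = 0.0911) and GLRX3 (0.76, edgeR adjusted p = 0.101). Among glutathione S-transferases, GSTA1 fell in HepG2 from 110, 78.9 and 95.3 CPM to 30.9, 35.4 and 25.8 CPM. GSTA1 was the 1 of 15 called, where 0.538% of all genes were called lower. It has a near-identical copy in GSTA2. None of 10 passed in Ls174. No other gene of the thioredoxin system passed, of 14 tested in HepG2 and 13 in Ls174. Where 2.77% and 0.318% of all genes were called higher, none called in so short a list says little. The smallest p belonged to SESN2 (0.92, edgeR adjusted p = 0.111) and TXNIP (1.87, edgeR adjusted p = 0.112) in HepG2. In Ls174 it belonged to SESN2 (1.05, edgeR adjusted p = 0.0985) and TXNRD2 (0.93, edgeR adjusted p = 0.305). Fitted values were lower for 8 genes in HepG2 and 6 in Ls174. None of the 3 superoxide dismutase and catalase genes passed.

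**Figure D3:**
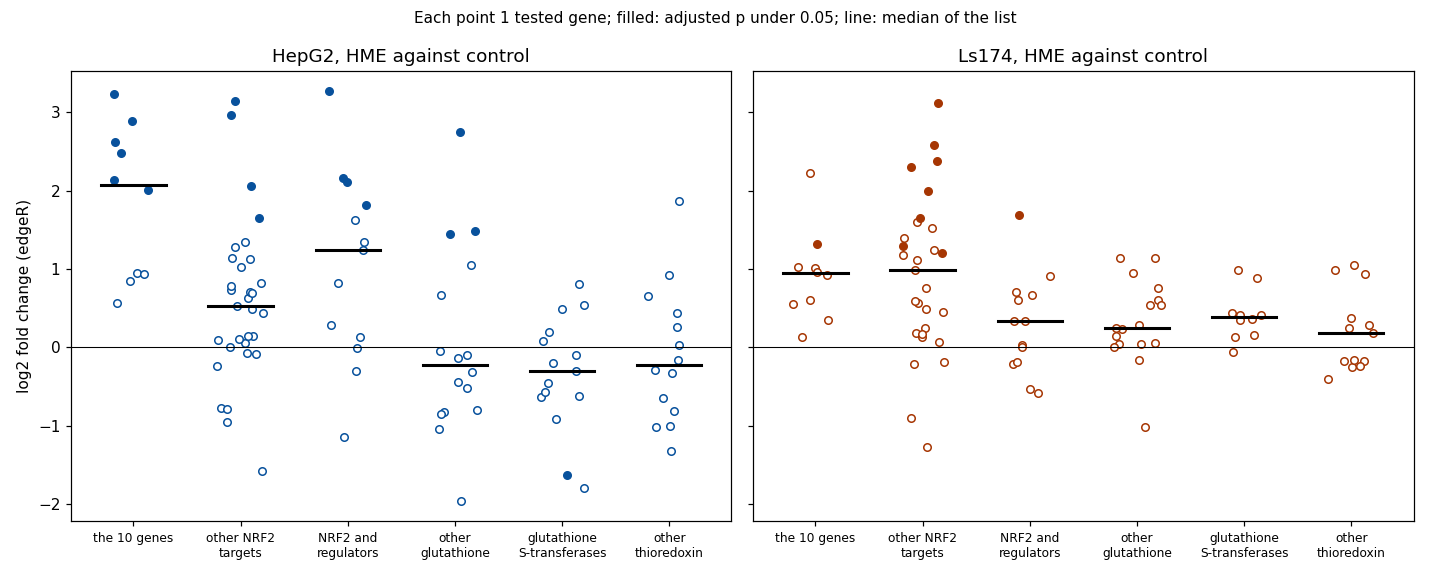
Log2 fold change of every tested gene (points) in the 10 genes and in other gene lists, for HME against control in HepG2 and Ls174; filled points passed an adjusted p of 0.05 and horizontal lines are the medians. The medians of the 10 genes are 2.07 in HepG2 and 0.95 in Ls174, and those of the other thioredoxin genes are -0.22 and 0.18.

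Counts were given per 3′ region, on GRCh37, and 1 region held 94.5% to 100% of the counts of each gene. It lay mainly over the annotated 3′ untranslated part of the transcript, for example chr1:94350564-94354545 for GCLM, chr6:53361942-53363569 for GCLC, chr12:104742131-104744258 for TXNRD1 and chr20:627062-629357 for SRXN1. The SRXN1 region overlaps that of a second gene annotated as protein-coding on the same strand. Both had identical counts in all 12 libraries, so these reads cannot be told apart. The PRDX1 region overlaps MMACHC on the opposite strand, which had 274 counts in all.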

How the data were processed

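Libraries were made with a 3′ mRNA kit and read on an Ion Proton instrument. The authors aligned reads to GRCh37 (hg19) with HISAT2 and used metaseqR2; the processing notes also name Bowtie2 and Trimmomatic without a role. The deposited values are raw counts per 3′ region, which were summed here per gene. Counts were fitted with edgeR 4.0.16 (R 4.3.3): TMM normalisation, filterByExpr and the quasi-likelihood F test, with Benjamini-Hochberg adjustment over all genes tested. CPM within a line used the factors of its 6 libraries, and SE is the absolute log2 fold change divided by the square root of F. The code was tested on simulated data. Alternatives used DESeq2 1.42.0, other scalings and filters, a binomial test on summed counts, and leaving out libraries. The 10 genes and the lists were chosen with earlier results of these data known. All 10 genes are named, and NFE2L2, KEAP1 and HMOX1 always. Genes of other lists were drawn from the called genes with the largest changes, up to 4 per list and line. Otherwise they were drawn from up to 2 with the smallest p. Values of some genes so picked, mostly ones that did not pass, are not given. Totals of 1790841 to 3656662 counts limit genes of low level: 3 counts were 0.820 to 1.68 CPM before TMM.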

Additional observations from a re-analysis of the deposited data

Results flagged for a closer look

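The response of MAFK differed between the lines. It was 21.4, 26.3 and 21.4 CPM in HepG2 controls and 101, 74.4 and 133 CPM after HME, but 30.5, 18.7 and 25.1 CPM in Ls174 controls and 24.8, 20.8 and 18.5 CPM after HME. The interaction was -2.35 on the log2 scale (edgeR adjusted p = 0.0174), and it passed in 7 of 12 fits that left out 1 library, with adjusted p from 0.0163 to 0.0863.

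ABCC3, an export pump for conjugates, had treated libraries below the controls in HepG2 and above them in Ls174. It was 54.2, 134 and 71.4 CPM in the controls and 38.6, 41.9 and 53.4 CPM after HME in HepG2, a log2 fold change of -0.95 (edgeR adjusted p = 0.190). In Ls174 it was 12.5, 5.68 and 5.80 CPM in the controls and 16.9, 15.8 and 28.5 CPM after HME, a log2 fold change of 1.40 (edgeR adjusted p = 0.210). Neither passed, and the interaction of 2.35 on the log2 scale did not pass (edgeR adjusted p = 0.0793).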

How the results depend on the processing

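In HepG2, 6 of the 10 genes rose; a binomial test on summed counts, which has no term for replicate spread, called 10, and leaving out 1 library gave 2 to 7. In Ls174, where 1 rose, DESeq2 and the test without a filter called 5, a minimum of 10 counts in every library 2, the binomial test 10, the thresholds of the study 7, a single fit of 12 libraries 0, and leaving out 1 library 0 to 4. For the difference in response (0 called), DESeq2 called 3 lower, no filter 1, and leaving out 1 library 0 to 1; without both controls that stood apart, chosen after seeing the data, 3. Between control cells (1 lower), DESeq2 and no filter called 2, leaving out 1 library 1 to 2, removal of both controls 4, and a minimum of 10 counts 0, since OSGIN1 was then filtered out. Here and in the sections above, counts called under alternative settings come without the share of all genes called under the same setting. They show only how the calls move. Other causes were not tested.

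Some signs turned, none of them in a gene called in that comparison. Leaving out 1 library, NFE2L2 in Ls174 ranged from -0.063 to 0.77 and PRDX1 from -0.021 to 0.28 on the log2 scale. Leaving out 1 library or both controls that stood apart, NQO1 ranged from -0.22 to 0.33 and OSGIN1 from -1.27 to 0.85 for the difference in response. Between control cells NFE2L2 then ranged from -0.53 to 0.62, SRXN1 from -0.66 to 0.0059 and SLC7A11 from -0.39 to 0.41. There, GCLC was 0.031 and NFE2L2 0.11 with library size scaling, NFE2L2 0.022 with upper quartile scaling, and SLC7A11 -0.0069 with the leading region alone.

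No pairing of the samples by replicate number was seen. Correlations of deviations were -0.17, 0.09 and -0.12 in HepG2 and -0.03, -0.01 and -0.05 in Ls174. Not every sample correlated best with its own number. With 3 replicates per group, these values cannot decide whether the samples were paired. With the replicate block, 6 genes were called in HepG2 and 0 in Ls174.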

Other observations

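Of 7342 other genes with a mean of at least 10 CPM in each line, those whose profile was most like the mean of the 10 genes over the 12 libraries, after centring each line, were IER3 (Pearson r = 0.990), PCK1 (0.974), MOSPD1 (0.973), the gene that shares its reads with SRXN1 (0.972) and S100A11 (0.971). IER3, an early stress response gene, averaged 72.2 CPM in HepG2 controls and 3463 CPM after HME, and 268 and 919 CPM in Ls174. These correlations describe libraries that share a treatment, and no p is given. Within the 10 genes, the correlation with the mean of the others was lowest for PRDX1 (0.679) and highest for GSR (0.980).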
